A study of Homo sapiens with 6 samples.

Results

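ATF4 and 9 regulators and targets of the unfolded protein response were followed in libraries that carry the label HepG2. HepG2 is a line grown from a human liver tumour, and most of the liver markers looked for were near 0 or absent in these libraries. The 10 genes are ATF4, DDIT3, TRIB3, CHAC1, XBP1, ERN1, ATF6, HERPUD1, PPP1R15A and SDF2L1. They were taken by gene symbol from the 27452 rows of the deposited table, each matched 1 row, and all 10 were among the 14999 genes with enough counts to be tested. The tested group had 3 libraries of cells labelled STAT3 shRNA, and the other had 3 libraries labelled Ctrl shRNA. Per the labels, the short hairpin RNA (shRNA) was used to construct cell lines, all cells were kept in the same serum medium, and no drug or stressor of the endoplasmic reticulum (ER) is named. The labels do not say whether the 3 libraries of a group came from separate cultures, clones or hairpins, and the p-values speak to the scatter among libraries alone, which could be technical.

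The unfolded protein response is the set of signals by which a cell adjusts to misfolded protein in the ER. Its 3 sensors sit in the ER membrane: the kinase PERK (gene EIF2AK3), the kinase and nuclease IRE1 (ERN1) and the membrane-bound transcription factor ATF6. PERK and other kinases phosphorylate the translation factor eIF2alpha, which lowers protein synthesis in general and raises translation of the ATF4 mRNA. IRE1 removes a short intron from the XBP1 mRNA so that it encodes an active transcription factor, and ATF6 is cut by Golgi proteases to release its own. In secretory cells such as those of the liver, this response sets the capacity for protein folding. Translation of ATF4, splicing of XBP1 and cleavage of ATF6 are not measured by counts per gene, so the values here are mRNA levels only.

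Motifs of this response lie in the stretch before the start site of 4 of the 10 genes, and these stretches are shown because elements of this kind are how ATF6, XBP1 and ATF4 are known to reach their targets. All 10 genes had a promoter entry in RefSeq (build GRCh38.p14), and each was searched from 250 bases before to 50 bases after the start site. The first is an ER stress response element of type II (ERSE-II), which reads ATTGG, any 1 base and CCACG. The second is the ER stress response element (ERSE), which reads CCAAT, any 9 bases and CCACG. The third is a C/EBP-ATF response element (TGATGNAAN, with N for any base), which ATF4 can bind with a C/EBP partner. Capitals mark the matches on either strand, and each line gives the 250 bases before the start, 5′ to 3′ on the strand of the gene.
HERPUD1 (chr16:56931892-56932141, plus strand): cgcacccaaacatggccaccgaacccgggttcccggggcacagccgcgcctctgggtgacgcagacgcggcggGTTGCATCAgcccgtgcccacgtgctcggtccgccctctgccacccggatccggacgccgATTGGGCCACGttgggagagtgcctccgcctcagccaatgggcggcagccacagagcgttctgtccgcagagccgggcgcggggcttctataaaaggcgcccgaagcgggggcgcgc
SDF2L1 (chr22:21642052-21642301, plus strand): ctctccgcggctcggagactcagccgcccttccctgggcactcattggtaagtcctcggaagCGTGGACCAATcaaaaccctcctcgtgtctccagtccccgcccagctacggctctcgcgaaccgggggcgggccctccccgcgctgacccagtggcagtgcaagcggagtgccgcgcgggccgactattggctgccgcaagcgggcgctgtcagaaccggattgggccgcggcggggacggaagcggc
XBP1 (chr22:28800570-28800819, minus strand): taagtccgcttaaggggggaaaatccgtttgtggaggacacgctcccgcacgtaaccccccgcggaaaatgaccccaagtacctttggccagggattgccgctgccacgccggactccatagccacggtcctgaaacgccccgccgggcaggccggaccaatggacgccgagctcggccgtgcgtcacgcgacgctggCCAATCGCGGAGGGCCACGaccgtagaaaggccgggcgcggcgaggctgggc
CHAC1 (chr15:40953221-40953470, plus strand): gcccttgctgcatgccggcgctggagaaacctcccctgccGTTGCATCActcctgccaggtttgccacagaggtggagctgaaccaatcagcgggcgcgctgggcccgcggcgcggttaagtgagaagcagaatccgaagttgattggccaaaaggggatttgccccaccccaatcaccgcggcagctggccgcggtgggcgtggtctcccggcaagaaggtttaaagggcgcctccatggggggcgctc

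ERSE-II was found in HERPUD1 and SDF2L1 and in 15 of 27305 human promoter windows in all (0.0549%). ERSE was found in XBP1 and in 22 windows in all (0.0806%). The C/EBP-ATF response element was found in HERPUD1 and CHAC1 and in 3.67% of windows. HERPUD1 is thus the 1 gene of the 10 with matches to 2 of these 3 elements. The core of the XBP1 element TGACGTGG, the STAT site TTCNNNGAA and its stricter form TTCCNGGAA were in none of the 10 windows, against 0.795%, 7.88% and 1.22% of all windows. The short parts of these elements are common and overlap them: CCAAT was in 6 of the 10 windows against 35.7% of all, and ACGTG in 3 of the 10 against 21.6%. A match is a run of letters in this window and not a measured binding site.

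Of the 10 genes, 3 rose with STAT3 shRNA (PPP1R15A, HERPUD1 and ERN1) and 1 fell (TRIB3) at a false discovery rate (FDR) of 0.05, by changes of 1.43-fold to 1.72-fold. Over all 14999 genes tested, 17.5% were called in either direction, 9.39% higher and 8.13% lower. The transcription factor ATF4 itself and its partner DDIT3 (CHOP) were not called. Neither were XBP1, ATF6, CHAC1 and SDF2L1. In 7 of the 10 genes the 3 STAT3 shRNA libraries did not overlap the 3 Ctrl shRNA libraries, against 35.7% of all tested genes. Of these 7, 5 were higher (XBP1, ERN1, HERPUD1, PPP1R15A and CHAC1) and 2 lower (ATF4 and TRIB3), against 18.5% and 17.2% of all tested genes. Scaling by library totals turned the split of all calls from 1408 higher and 1219 lower into 1916 higher and 874 lower. The adjusted p-values that follow are from edgeR's quasi-likelihood test with Benjamini-Hochberg adjustment over all 14999 genes, log2 fold changes are STAT3 shRNA over Ctrl shRNA with their standard error (SE), and levels are CPM, the counts scaled to a common library size, corrected for composition, with SD and n = 3 per group.

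**Figure D1:**
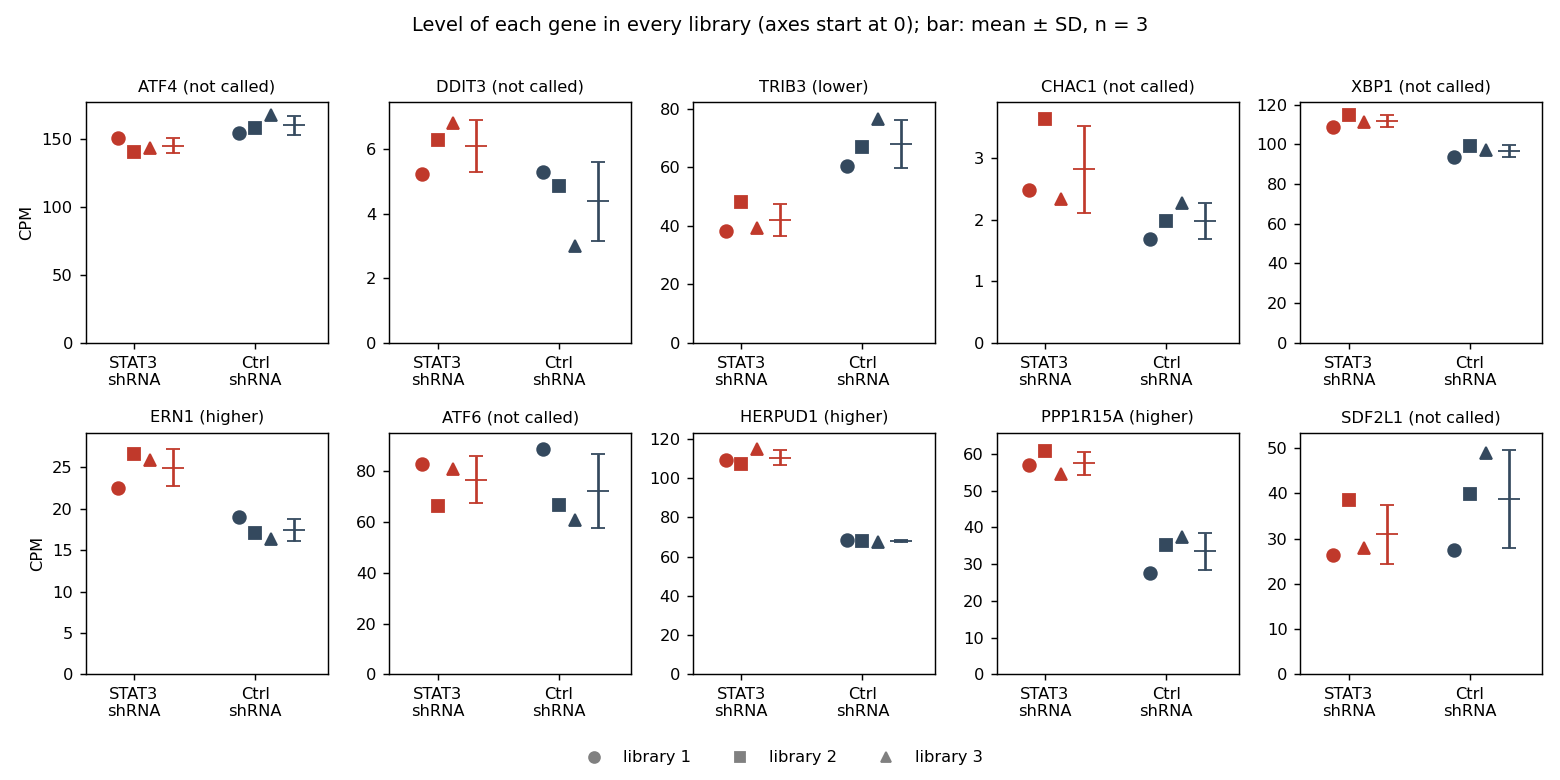
Level of each of the 10 genes in CPM (vertical axis, from 0) in the 3 STAT3 shRNA libraries and the 3 Ctrl shRNA libraries, with symbols for the library number and bars for the mean ± SD. HERPUD1, PPP1R15A, ERN1 and TRIB3 separate clearly, while DDIT3, ATF6 and SDF2L1 overlap between the groups.

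The libraries held 17694642 to 25862027 counts with STAT3 shRNA and 17408543 to 20133064 with Ctrl shRNA. STAT3 averaged 35.6 ± 0.73 CPM in STAT3 shRNA libraries and 252 ± 8.67 CPM in Ctrl shRNA libraries (SD, n = 3 each), a log2 fold change of -2.82 ± 0.0845, and each library carried the level its label names. Most of the markers did not bear out the liver label, since albumin and several other secreted liver proteins were near 0. The libraries are called by their shRNA labels alone. Of the hepatocyte markers few were detected: of 22 looked for, 14 had a row and 5 reached 1 CPM in any library, and albumin (ALB) had 0 to 3 counts in STAT3 shRNA libraries and 0 to 2 in Ctrl shRNA libraries. The summed hepatocyte markers came to 66.1 to 75.0 CPM with STAT3 shRNA and 53.3 to 55.0 CPM with Ctrl shRNA, most of it from FOXA1. The secreted protein VTN lay at 9.67 to 13.8 CPM with STAT3 shRNA and 13.6 to 15.6 CPM with Ctrl shRNA. HNF4A lay at 4.96 to 7.56 CPM and 1.28 to 1.79 CPM in the same order. TF and RBP4 reached at most 2.16 and 1.87 CPM in any library. Fibroblast markers, 6 of 7 with a row and 3 of them reaching 1 CPM, summed to 36.1 to 38.0 CPM with STAT3 shRNA and 53.3 to 61.3 CPM with Ctrl shRNA, with COL1A1 the highest of them on average at 27.8 CPM. The lower sum came from COL1A1, at 14.3 to 16.5 CPM with STAT3 shRNA and 38.3 to 43.5 CPM with Ctrl shRNA. The others that reached 1 CPM went the other way: DCN (13.85 to 15.38 against 10.52 to 13.77 CPM) and PDGFRB (5.56 to 6.82 against 4.27 to 5.75 CPM). Endothelial markers summed to at most 1.74 CPM with STAT3 shRNA and 1.76 CPM with Ctrl shRNA, and leukocyte markers to at most 0.451 CPM and 0.641 CPM in the same order. The part of these markers in the results was not tested, and in bulk libraries fewer cells of a type and less RNA per cell cannot be told apart. Libraries of a group lay apart on the second principal component of log2 CPM, which held 20.9% of the variance. Ctrl shRNA library 1 lay at 44.3, against -1.56 and -27.5 for the others of its group. STAT3 shRNA library 2 lay at -31.1, against 6.32 and 9.48 for the others of its group. Counts of calls that changed without Ctrl shRNA library 1 are also given without it. Counts of genes without overlap and of chromosome neighbours were not recomputed without it.

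ATF4, the transcription factor at the head of the group, is the most abundant of the 10 per length of transcript. ATF4 (ENSG00000128272.14) lay at 151, 140.4 and 144 CPM in STAT3 shRNA libraries, against 154, 158 and 167 CPM in Ctrl shRNA libraries. Every STAT3 shRNA library was below every Ctrl shRNA library, but by little. This came to a log2 fold change of -0.14 ± 0.0812, with a 95% interval of -0.32 to 0.04 and an edgeR adjusted p of 0.271. The processed pseudogenes of ATF4 that have a row in the table reached at most 2 counts in any library, so few reads were assigned to those copies. The genes nearest to ATF4 in profile over the 6 libraries were the Krebs cycle enzyme SUCLG1, the mitochondrial ribosomal protein MRPS14 and DHRS7B. Their root mean square differences were 0.0122, 0.0204 and 0.0228 in centred log2 CPM. Profiles were centred but not scaled, so genes that vary little, such as ATF4 and XBP1, lie near other such genes. Shared regulation was not tested.

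DDIT3 encodes CHOP, a transcription factor that ATF4 induces and that is linked to cell death under lasting stress. DDIT3 (ENSG00000175197.12) was rare, with 139, 128 and 125 counts in STAT3 shRNA libraries (5.22, 6.28 and 6.82 CPM) and 91, 91 and 57 counts in Ctrl shRNA libraries (5.31, 4.86 and 3.0 CPM). The groups overlapped at one library each: STAT3 shRNA library 1 was just below Ctrl shRNA library 1. On the log2 scale the change was 0.47 ± 0.232 with a 95% interval of -0.05 to 1.0 (edgeR adjusted p = 0.199), and it ranged from 0.27 without Ctrl shRNA library 3 to 0.65 without Ctrl shRNA library 1. In the GENCODE 29 annotation, 355 exonic bases of DDIT3 are shared with the neighbouring MARS and 58 with MBD6, both on the opposite strand. The strand setting of the counts is not given, so reads of these genes cannot be told apart in the shared stretch. MARS had up to 4073 counts in a library, far more than DDIT3. Nearest to DDIT3 in profile were KLHL24, the RNA gene CTD-3232M19.2 and FAM81A, at root mean square differences of 0.097, 0.10 and 0.119.

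TRIB3 was the 1 gene of the 10 that fell. It encodes a pseudokinase that ATF4 and CHOP induce and that in turn restrains ATF4. TRIB3 (ENSG00000101255.11) lay at 38.3, 48.2 and 39.3 CPM in STAT3 shRNA libraries, against 60.4, 67.1 and 76.5 CPM in Ctrl shRNA libraries. The highest STAT3 shRNA library stayed below the lowest Ctrl shRNA library, and the means were 41.9 ± 5.42 CPM with STAT3 shRNA and 68.0 ± 8.1 CPM with Ctrl shRNA. It fell by 0.70 on the log2 scale (SE 0.127, 1.62-fold lower, edgeR adjusted p = 0.00519), and TRIB3 was called lower in all 13 alternative fits, with log2 fold changes of -0.81 to -0.60. Its relative TRIB1, a pseudokinase of the same family, moved the other way, with 15.6 ± 1.75 CPM in STAT3 shRNA libraries and 10.7 ± 1.42 CPM in Ctrl shRNA libraries (log2 fold change 0.54 ± 0.143, edgeR adjusted p = 0.0296), a call lost in 5 of 13 alternative fits.

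CHAC1 (ENSG00000128965.13) encodes an enzyme that breaks down glutathione and is a target of ATF4 and CHOP. It was the rarest of the 10, with 66, 74 and 43 counts in STAT3 shRNA libraries and 29, 37 and 43 in Ctrl shRNA libraries. On the CPM scale these are 2.48, 3.63 and 2.34 with STAT3 shRNA and 1.69, 1.98 and 2.27 with Ctrl shRNA. The groups did not overlap, yet the lowest STAT3 shRNA library was only 1.03 times the highest Ctrl shRNA library. A log2 fold change of 0.51 ± 0.263 was not called (95% interval -0.09 to 1.1, edgeR adjusted p = 0.225), and the coefficient of variation between libraries was 25.1% with STAT3 shRNA and 14.5% with Ctrl shRNA. The related enzyme CHAC2, which is not known as a stress target, fell to 25.8 ± 1.81 CPM in STAT3 shRNA libraries, against 34.1 ± 2.53 CPM in Ctrl shRNA libraries (log2 fold change -0.41 ± 0.106, edgeR adjusted p = 0.0284), a call lost in 4 of 13 alternative fits.

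PPP1R15A showed the largest change of the 10. It encodes GADD34, the inducible subunit that directs protein phosphatase 1 to eIF2alpha and so ends the block on protein synthesis. PPP1R15A (ENSG00000087074.8) lay at 57.1, 60.8 and 54.5 CPM in STAT3 shRNA libraries, against 27.7, 35.3 and 37.3 CPM in Ctrl shRNA libraries. All 3 STAT3 shRNA libraries were above all 3 Ctrl shRNA libraries, the lowest at 1.46 times the highest Ctrl shRNA value. Its log2 fold change was 0.78 ± 0.124 (1.72-fold, edgeR adjusted p = 0.00254). It was called in all 13 alternative fits and was 0.68 without Ctrl shRNA library 1, the library with the lowest value.

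The constitutive counterpart PPP1R15B (CReP), which directs the same phosphatase in unstressed cells, changed in the opposite direction. PPP1R15B lay at 171, 154 and 186 CPM in STAT3 shRNA libraries, against 328, 280.4 and 229 CPM in Ctrl shRNA libraries. It fell by 0.71 on the log2 scale (SE 0.134, edgeR adjusted p = 0.00625) and was called in all 13 alternative fits. Within each library, the log2 ratio of PPP1R15A to PPP1R15B counts was -1.58, -1.34 and -1.77 with STAT3 shRNA, against -3.56, -2.99 and -2.62 with Ctrl shRNA. The mean ratio was 1.49 higher on the log2 scale with STAT3 shRNA and did not overlap between the groups, a measure that no library scaling can alter. Its exact two-sided permutation p was 0.1 over the 20 assignments of 6 libraries, the smallest that 3 against 3 can give, and 0.15 after Benjamini-Hochberg adjustment over the 12 ratios computed. Per kilobase of the longest transcript, PPP1R15A stood at 24.2 ± 1.35 CPM and PPP1R15B at 32.6 ± 3.01 CPM with STAT3 shRNA, and at 14.1 ± 2.14 CPM and 53.4 ± 9.4 CPM with Ctrl shRNA.

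**Figure D2:**
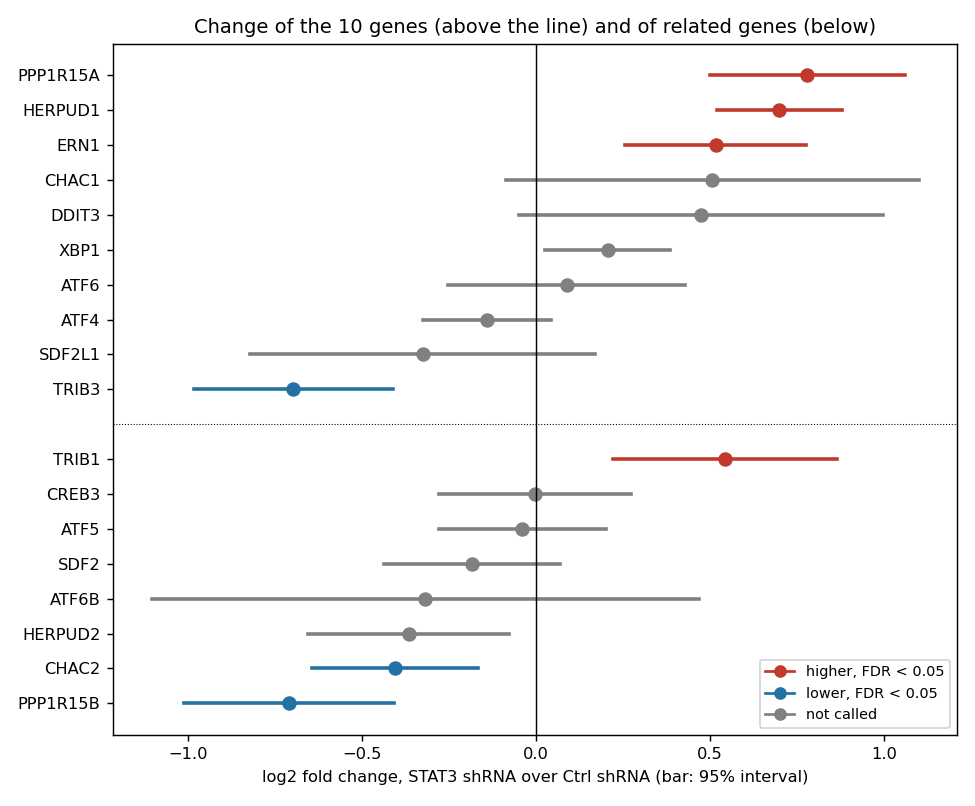
Log2 fold change, STAT3 shRNA over Ctrl shRNA (horizontal axis), with its 95% interval for the 10 genes above the dotted line and for 8 tested relatives below it; colours mark the calls at an FDR of 0.05. PPP1R15A, HERPUD1 and ERN1 lie to the right and TRIB3 to the left, while PPP1R15B (-0.71) lies opposite PPP1R15A (0.78).

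Among the sensors, ERN1 rose. ERN1 (ENSG00000178607.16) encodes IRE1, the most conserved of the 3. It lay at 22.5, 26.6 and 25.8 CPM in STAT3 shRNA libraries, against 18.96, 17.03 and 16.34 CPM in Ctrl shRNA libraries. No STAT3 shRNA library came within the Ctrl shRNA range. ERN1 thus changed by 0.52 ± 0.115 on the log2 scale (1.43-fold higher, edgeR adjusted p = 0.0144). With STAT3 shRNA library 2 left out the call was lost (adjusted p = 0.0517), and likewise with STAT3 shRNA library 3 (0.0679) or Ctrl shRNA library 2 (0.0724) left out, and over its 13 alternatives the edgeR or DESeq2 adjusted p ran from 0.00346 to 0.0724. The related ERN2, an IRE1 of the gut lining, had no row.

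ATF6 (ENSG00000118217.6) overlapped between the groups, with 82.8, 66.0 and 80.9 CPM in STAT3 shRNA libraries and 88.7, 66.7 and 60.8 CPM in Ctrl shRNA libraries. Its log2 fold change was 0.09 ± 0.151 with a 95% interval of -0.25 to 0.43 (edgeR adjusted p = 0.728). That value was 0.28 without Ctrl shRNA library 1 and -0.01 without Ctrl shRNA library 3, so its sign is not settled. The paralog ATF6B lay at 6.75 ± 3.04 CPM with STAT3 shRNA and 8.5 ± 2.64 CPM with Ctrl shRNA and was not called. The third sensor gene, EIF2AK3, which is outside the 10 and outside the rule for named genes, was not called, at 0.38 ± 0.129 on the log2 scale (edgeR adjusted p = 0.0741), with means of 33.8 ± 3.24 CPM with STAT3 shRNA and 26 ± 3.65 CPM with Ctrl shRNA. It passed the threshold in 3 of 13 alternative fits.

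XBP1, the target of IRE1, was not called, but its groups separated by a small margin. XBP1 (ENSG00000100219.16) lay at 109, 115 and 111 CPM in STAT3 shRNA libraries, against 93.6, 99.3 and 97 CPM in Ctrl shRNA libraries. The groups did not overlap, and the spread within each was narrow, with SDs of 2.98 CPM and 2.89 CPM in the same order. The log2 fold change was 0.21 ± 0.0796 (1.15-fold), with a 95% interval of 0.03 to 0.39 for this gene alone, and it missed the threshold over all genes (edgeR adjusted p = 0.11). Scaling by library totals brought it to 0.30 with an adjusted p of 0.0297, a scaling that moved the median of all genes by 0.0966. Within libraries the log2 ratio of XBP1 to ERN1 was 2.16 ± 0.095 with STAT3 shRNA and 2.47 ± 0.147 with Ctrl shRNA (exact permutation p = 0.1, adjusted 0.15, n = 3 per group). The pseudogene XBP1P1 had at most 4 counts. Nearest in profile were SEPTIN8, the acyltransferase GPAT4 and the RNA gene MIR600HG, at root mean square differences of 0.0256, 0.0268 and 0.0279.

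HERPUD1 gave the clearest separation and the smallest p of the 10. It encodes an ER membrane protein of the degradation machinery for misfolded proteins and is induced by several arms of the response, and its promoter stretch above holds both an ERSE-II and a C/EBP-ATF match. HERPUD1 (ENSG00000051108.15) lay at 109, 107 and 115 CPM in STAT3 shRNA libraries, against 68.3, 68.1 and 67.5 CPM in Ctrl shRNA libraries. The 3 Ctrl shRNA libraries were almost equal (SD 0.395 CPM), and the lowest STAT3 shRNA library was 1.57 times the highest of them. The Ctrl shRNA counts were 1171, 1275 and 1281, for which counting error alone gives a wider expected spread, so this SD is likely too small. The log2 fold change was 0.70 ± 0.0791 (1.62-fold, edgeR adjusted p = 0.000406). It was called higher in all 13 alternative fits with log2 fold changes of 0.67 to 0.80.

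SDF2L1, whose promoter stretch also holds an ERSE-II match, was not called. It encodes an ER protein that works with the chaperone BiP. SDF2L1 (ENSG00000128228.5) lay at 26.5, 38.5 and 27.9 CPM in STAT3 shRNA libraries, against 27.5, 39.8 and 48.9 CPM in Ctrl shRNA libraries. The ranges overlapped widely. The coefficient of variation was 21.3% with STAT3 shRNA and 27.8% with Ctrl shRNA, against 3.38% and 0.581% for HERPUD1, the last below counting error. The log2 fold change was -0.33 ± 0.218 (95% interval -0.82 to 0.17, edgeR adjusted p = 0.346), and it ran from -0.51 to -0.11 as single libraries were left out. Its paralog SDF2, which is not induced by stress, was not called either (-0.18 ± 0.112, edgeR adjusted p = 0.297), nor was HERPUD2, the paralog of HERPUD1 (-0.37 ± 0.128, edgeR adjusted p = 0.0826).

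The chaperone BiP (HSPA5), the usual marker of ER stress, served as a yardstick for the 2 quality control genes. HSPA5 averaged 567 ± 24.5 CPM in STAT3 shRNA libraries and 582 ± 33 CPM in Ctrl shRNA libraries and was not called (log2 fold change -0.04 ± 0.0829, edgeR adjusted p = 0.802, with a sign that turned under upper-quartile scaling and library totals). Within libraries the log2 ratio of HERPUD1 to HSPA5 was -2.40, -2.33 and -2.35 with STAT3 shRNA, against -3.15, -3.12 and -3.01 with Ctrl shRNA, a difference of 0.74 with no overlap (exact permutation p = 0.1, adjusted 0.15). The ratio of SDF2L1 to HSPA5 overlapped (-4.22 ± 0.354 with STAT3 shRNA and -3.95 ± 0.496 with Ctrl shRNA, exact permutation p = 0.7, n = 3 per group).

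Its targets were set against ATF4 in the same way, and none of these ratios passed adjustment over the 12. The log2 ratio of TRIB3 to ATF4 was -1.98, -1.54 and -1.87 in STAT3 shRNA libraries, against -1.35, -1.24 and -1.13 in Ctrl shRNA libraries, a difference of -0.56. The ratio of DDIT3 to ATF4 was 0.65 higher with STAT3 shRNA, and that of CHAC1 to ATF4 was 0.63 higher. TRIB3 against DDIT3 gave the widest gap among these genes, -1.20, with 2.78 ± 0.221 in STAT3 shRNA libraries and 3.98 ± 0.604 in Ctrl shRNA libraries. For DDIT3 to ATF4 the nearest libraries stood at -4.847 with STAT3 shRNA and -4.851 with Ctrl shRNA. Each of these 4 ratios had the smallest exact permutation p of 0.1, or 0.15 adjusted. CHAC1 against DDIT3 was about even, at -1.13 ± 0.375 with STAT3 shRNA and -1.11 ± 0.635 with Ctrl shRNA.

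**Figure D3:**
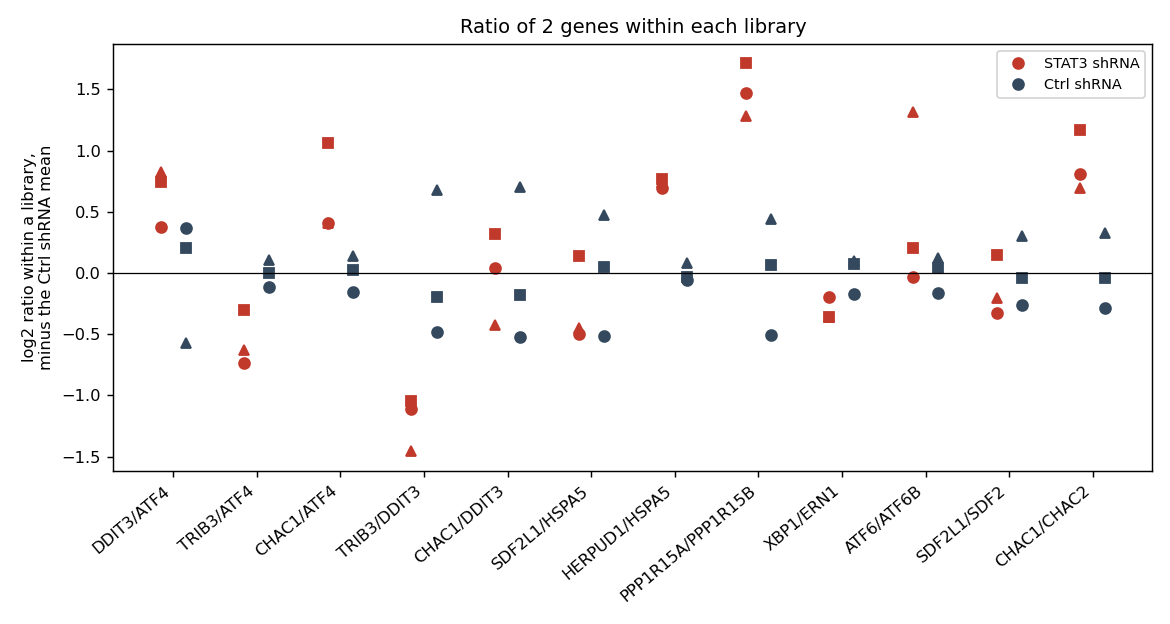
Log2 ratio of 2 genes' counts within each library, shown relative to the mean of the Ctrl shRNA libraries for that pair (vertical axis), for 12 pairs, with the STAT3 shRNA libraries left and the Ctrl shRNA libraries right of each mark and circles, squares and triangles for libraries 1, 2 and 3. PPP1R15A/PPP1R15B is highest (1.49 above the Ctrl shRNA mean) and TRIB3/DDIT3 lowest (-1.20).

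Some of the genes also varied between libraries of the same group. SDF2L1, TRIB3, CHAC1 and PPP1R15A were each highest in library 2 among the STAT3 shRNA libraries and in library 3 among the Ctrl shRNA libraries, and each was lowest in library 1 of the Ctrl shRNA group. ATF6 went the opposite way, lowest in those same 2 libraries and highest in Ctrl shRNA library 1. On the second principal component, STAT3 shRNA library 2 and Ctrl shRNA library 3 lay at -31.1 and -27.5, and Ctrl shRNA library 1 at 44.3. The part of this component in the results was not tested. HERPUD1 and XBP1 stayed within 0.06 of their group mean on the log2 scale in all 6 libraries. Leaving out Ctrl shRNA library 1 left the same 4 genes of the 10 called.

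Across genes, levels can be compared per kilobase of the longest GENCODE 29 transcript. In STAT3 shRNA libraries the order of mean CPM per kilobase was ATF4 (71.8), XBP1 (51.3), HERPUD1 (37.5), SDF2L1 (35.8), PPP1R15A (24.2), TRIB3 (16.8), ATF6 (10.2), DDIT3 (5.72), ERN1 (3.17) and CHAC1 (1.52). In Ctrl shRNA libraries it was ATF4 (79.2), SDF2L1 (44.8), XBP1 (44.5), TRIB3 (27.2), HERPUD1 (23.1), PPP1R15A (14.1), ATF6 (9.61), DDIT3 (4.11), ERN1 (2.21) and CHAC1 (1.07). The ranges of HERPUD1 and SDF2L1 overlapped with STAT3 shRNA, and those of SDF2L1 and XBP1, and of PPP1R15A and ATF6, overlapped with Ctrl shRNA. The other neighbours in each order did not overlap. HERPUD1 thus stood above TRIB3 with STAT3 shRNA and below it with Ctrl shRNA. The lengths are those of the annotation and not of the transcripts these cells make.

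The genes around these 10 were then described by list, in 7 lists that leave out the 10. The lists are a description beside the background of 17.5% called and a median log2 fold change of -0.01 over all tested genes. That background was 27.4% without Ctrl shRNA library 1, 16.3% without Ctrl shRNA library 3, 13.9% without STAT3 shRNA library 2, 10.03% without Ctrl shRNA library 2, 9.89% without STAT3 shRNA library 3 and 9.66% with STAT3 shRNA library 1 left out.

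Targets of ATF4 outside the 10 split in direction: of 35 tested, 7 rose, 5 fell and 23 were not called, with a median log2 fold change of -0.14. The 7 that rose were the stress cytokine GDF15, the folate enzyme ALDH1L2, the cysteine-making enzyme CTH, the amino acid transporters SLC1A4 and SLC7A11, the serine synthesis enzyme PHGDH and the mTORC1 inhibitor SESN2. GDF15 averaged 45.8 ± 5.8 CPM with STAT3 shRNA and 14.4 ± 2.43 CPM with Ctrl shRNA (log2 fold change 1.67 ± 0.151, edgeR adjusted p = 0.000121). ALDH1L2 averaged 4.5 ± 0.266 CPM with STAT3 shRNA and 2.02 ± 0.342 CPM with Ctrl shRNA. The 5 that fell were SLC7A5 and SLC3A2, which pair as the large neutral amino acid transporter, and the tRNA synthetases WARS, MARS and AARS. SLC7A5 averaged 1186 ± 68.4 CPM with STAT3 shRNA and 1704 ± 73.5 CPM with Ctrl shRNA (log2 fold change -0.52 ± 0.0831, edgeR adjusted p = 0.0025). MARS and AARS lost their call in 9 of 13 alternative fits each, SLC3A2 and SESN2 in 3, WARS in 2, and PHGDH and SLC7A11 in 1, while GDF15, ALDH1L2, CTH, SLC1A4 and SLC7A5 kept theirs. The list's lower count was 8 with DESeq2, 3 with library totals, upper-quartile scaling or no low-count filter, 9 without Ctrl shRNA library 1, 3 without Ctrl shRNA library 3, 2 without STAT3 shRNA library 1, and 1 without Ctrl shRNA library 2 or STAT3 shRNA library 3. FGF21, a hormone of the liver and another target of ATF4, reached at most 1 count.

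**Figure D4:**
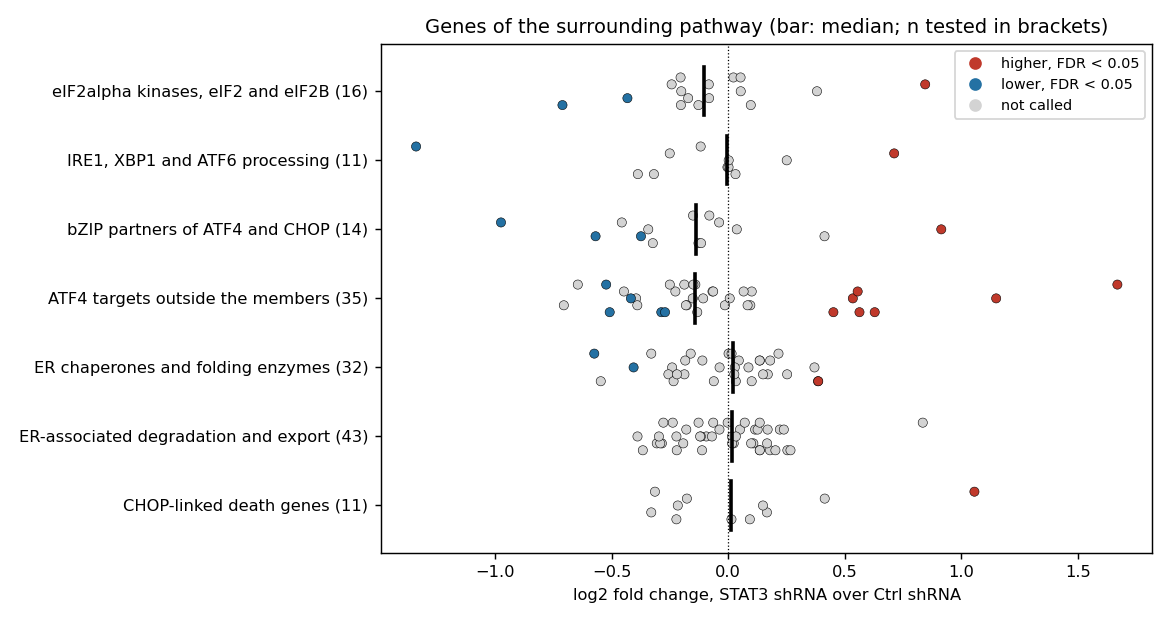
Log2 fold change, STAT3 shRNA over Ctrl shRNA (horizontal axis), of every tested gene in the 7 lists around the 10 genes, 1 point per gene, with a bar at each list's median. Called genes are spread to both sides among ATF4 targets (7 higher and 5 lower of 35), and none of 43 genes of ER-associated degradation and export is called.

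Partners of ATF4 and CHOP in the bZIP family of transcription factors gave 1 higher and 3 lower of 14 tested (median -0.14). ATF3, a repressor that ATF4 induces, averaged 38.9 ± 1.24 CPM with STAT3 shRNA and 20.6 ± 2.76 CPM with Ctrl shRNA (log2 fold change 0.91 ± 0.119, edgeR adjusted p = 0.000811). CEBPD, which cytokines induce through STAT3, averaged 34.7 ± 5.21 CPM with STAT3 shRNA and 68.1 ± 15 CPM with Ctrl shRNA (-0.97 ± 0.172, edgeR adjusted p = 0.00452). ATF2 (-0.57) and JDP2 (-0.37) also fell, calls lost in 5 and 9 of 13 alternative fits. The lower count of 3 was 1 with library totals and without any one of the STAT3 shRNA libraries or Ctrl shRNA library 2, and 4 without Ctrl shRNA library 1 or 3. ATF5, a target of ATF4 close to it in sequence, and CREB3 were not called (log2 fold changes of -0.04 and -0.003, with signs that turned under upper-quartile scaling and library totals).

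Among eIF2alpha kinases, eIF2, eIF2B and the phosphatase, 1 of 16 rose and 2 fell (median -0.11). The phosphatase 1 catalytic subunit PPP1CB rose to 335 ± 8.94 CPM with STAT3 shRNA, against 186 ± 28.8 CPM with Ctrl shRNA (log2 fold change 0.85 ± 0.116, edgeR adjusted p = 0.00109). The 2 lower genes were PPP1R15B, given above, and the eIF2 subunit EIF2S3 (-0.43 ± 0.111, edgeR adjusted p = 0.0265), a call lost in 5 of 13 alternative fits. Of the genes around IRE1 and ATF6, 1 of 11 rose and 1 fell (median -0.003). CREB3L4, a membrane-bound relative of ATF6, rose (0.71 ± 0.123, edgeR adjusted p = 0.00397), and MAP3K5 (ASK1), a kinase that IRE1 engages to signal death, fell to 4.53 ± 0.247 CPM with STAT3 shRNA, against 11.5 ± 1.46 CPM with Ctrl shRNA (-1.34 ± 0.151, edgeR adjusted p = 0.000399). Without Ctrl shRNA library 1 these 2 counts were 2 and 2, and the higher count around eIF2alpha was 2. The lower count around eIF2alpha was 1 without any one STAT3 shRNA library or without Ctrl shRNA library 2.

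The folding and disposal machinery downstream of XBP1 and ATF6 had few calls. Of 32 ER chaperones and folding enzymes, 1 rose and 2 fell (median 0.02): the disulfide isomerase PDIA6 (0.39 ± 0.0754, edgeR adjusted p = 0.00747), the BiP exchange factor SIL1 (-0.57 ± 0.136, edgeR adjusted p = 0.0186) and the reductase DNAJC10 (-0.41 ± 0.12, edgeR adjusted p = 0.0467). PDIA6 lost its call in 1, SIL1 in 3 and DNAJC10 in 8 of 13 alternative fits, and the list's higher count was 4 without Ctrl shRNA library 1, 2 without Ctrl shRNA library 3 and 0 without Ctrl shRNA library 2. Its lower count was 3 without Ctrl shRNA library 3, 0 without STAT3 shRNA library 1 or 3 or Ctrl shRNA library 2, and 1 with STAT3 shRNA library 2 left out. None of 43 genes of ER-associated degradation and export was called by edgeR (median 0.02). Of these, 12 had an unadjusted p under 0.05, as did 31.4% of all tested genes, and the DESeq2 test called 0 higher and 1 lower. Without Ctrl shRNA library 1, 4 of the 43 were higher and 7 lower, in a fit that called 27.4% of all genes. The most abundant were VCP (-0.19 ± 0.0742) and SEC61A1 (0.11 ± 0.0809). HERPUD1, which belongs to the same machinery and is left out of this list, was called in all 13 alternative fits.

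Of 11 death genes linked to CHOP, 1 was higher and 0 lower by edgeR (median 0.01, but -0.18 without STAT3 shRNA library 2, -0.12 without STAT3 shRNA library 1 and -0.10 without Ctrl shRNA library 1), with 5 at an unadjusted p under 0.05 and the same counts by DESeq2. BCL2L11 (BIM), which opens the mitochondrial route to cell death, averaged 17.1 ± 0.233 CPM in STAT3 shRNA libraries and 8.24 ± 1.5 CPM in Ctrl shRNA libraries (1.06 ± 0.146, edgeR adjusted p = 0.00115). The higher count was 2 without Ctrl shRNA library 1, and the lower count was 1 without Ctrl shRNA library 1 or 3.

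The neighbours on the chromosome were looked at after the values were seen, for the 10, their relatives and the list genes named by rule. They were not looked at for the called ATF4 targets SLC1A4, SLC7A11, PHGDH, SESN2, SLC3A2, WARS, MARS and AARS. The called genes of chromosome 2 given here may thus not be all. The 20 tested genes on each side of PPP1CB had a median log2 fold change of 0.33, with 18 of the 40 higher, and those around PDIA6 had 0.45, also with 18 of 40 higher. Around ATF2 and DNAJC10, the median was -0.48 and -0.49, with 22 and 20 of 40 lower. All 4 lie on chromosome 2. The neighbours of the 4 called genes of the 10 had medians of -0.05 (PPP1R15A), 0.10 (HERPUD1), 0.03 (ERN1) and -0.04 (TRIB3, with 25 neighbours). In the same order, 3, 6, 1 and 3 of these neighbours were higher and 2, 5, 0 and 1 lower. Of genes looked at off chromosome 2, SLC7A5 (chromosome 16) had the median furthest from 0, at -0.20, with 0 of 40 higher and 6 lower. PPP1R15B, on chromosome 1, fell while 12 of its 40 neighbours rose and 1 fell. BCL2L11 (1.06) and CHAC2 (-0.41), also called and on chromosome 2, both had a neighbour median of 0.10. Around BCL2L11, 6 of 40 were higher and 1 lower, and around CHAC2 2 were higher and 2 lower. The part of the neighbourhood in any of these calls, on chromosome 2 or elsewhere, was not tested.

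**Figure D5:**
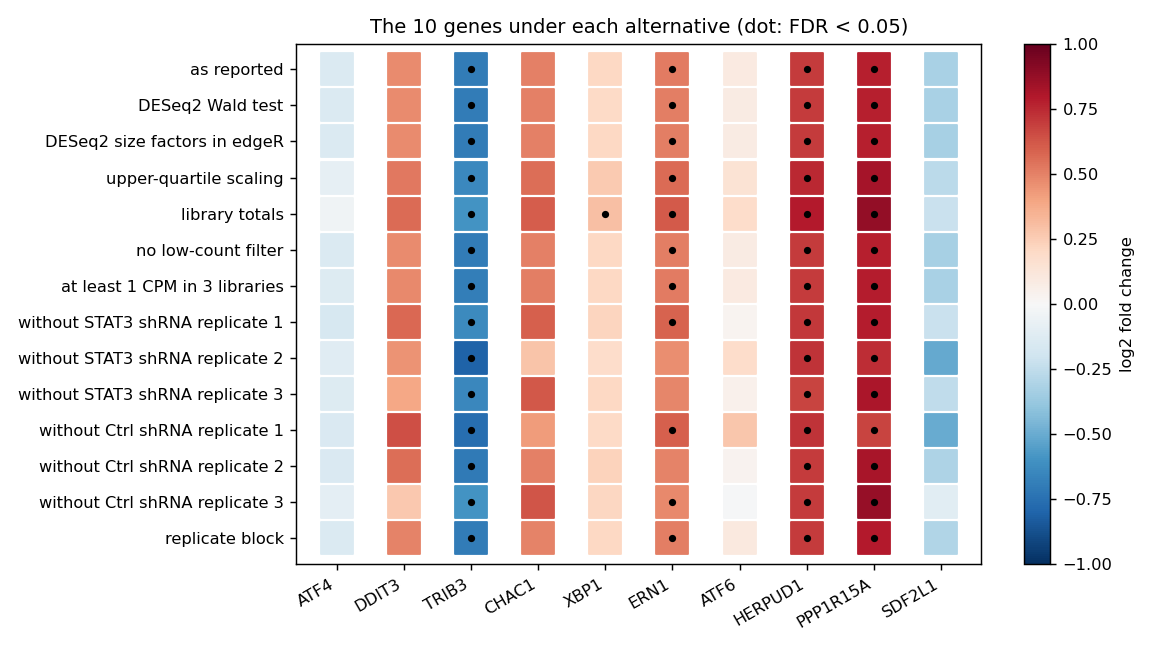
Log2 fold change, STAT3 shRNA over Ctrl shRNA (colour), of the 10 genes (columns) as reported and under 13 alternatives (rows), with a dot where the adjusted p is under 0.05. TRIB3, HERPUD1 and PPP1R15A carry a dot in every row, ERN1 in all but 3, and XBP1 with library totals alone.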

How the data were processed

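RNA was sequenced in 6 libraries labelled HepG2, a label that most of the hepatocyte markers go against, 3 labelled STAT3 shRNA and 3 labelled Ctrl shRNA. Values were the counts of the deposited table, whole numbers with no normalization visible. The aligner, counter, strand setting and build are not given in the sources used. Groups came from the treatment label and library numbers from the titles. In 23 rows the symbol had turned into a date, and 23 were replaced by identifier. Counts were fitted in R 4.3.3 with edgeR 4.0.16 (filterByExpr at a minimum count of 10 and total of 15, TMM scaling, robust quasi-likelihood test on group, two-sided, Benjamini-Hochberg over 14999 genes, FDR 0.05). SE is the fold change divided by the square root of F. TMM assumes that most genes do not differ. Ratios add 0.5 to counts. Libraries held 17408543 to 25862027 counts, so 1 count is worth at most 0.0583 CPM, and 3 counts, the limit that a count of 0 allows, at most 0.175 CPM; both cover counting error only. DESeq2 1.42.0, other scalings and filters, leaving out each library and a replicate block were alternatives (13 fits). Lengths, overlaps and gene order came from GENCODE 29, matched without the identifier's version, and promoters from RefSeq (GRCh38.p14, first window listed per gene).

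The 10 genes, the lists and the tests were chosen with earlier results of these data known. Named genes were STAT3, the 10, their closest relatives, up to 4 called genes per list by FDR or the 2 most abundant where none was called, and for ATF4, DDIT3 and XBP1 the 3 tested genes of at least 5 CPM nearest in centred log2 CPM (prior count 2). Other called members of the ATF4 target list, HSPA5, EIF2AK3 and FGF21 were named outside this rule, with their values seen. Replicates within a group differed far beyond sampling noise (chi-square per degree of freedom 4.20 to 43.0). The procedure was also run on simulated counts, drawn for each gene on its own. These lack the differences shared across genes between libraries of a group, so they give no error rate for these data.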

Additional observations from a re-analysis of the deposited data

How the results depend on the processing

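The counts of 3 higher and 1 lower among the 10 genes stayed within 1.5 times under the 13 alternatives, and the 7 with no overlap under the 3 scalings tried, with 2 to 3 higher as libraries were left out and 4 higher with library totals. Over all genes, 1408 higher and 1219 lower became 785 to 2092 and 664 to 2024 as single libraries were left out, with Ctrl shRNA library 1 giving the most and STAT3 shRNA library 1 the fewest. The share of called genes that were higher was 53.6% as reported, 68.7% with library totals and 62.3% with upper-quartile scaling. Deviations from the group mean correlated at 0.279, 0.191 and -0.227 between same-numbered libraries 1, 2 and 3, and at -0.461 to 0.333 between libraries of different numbers. With 3 libraries per group these values cannot decide whether the numbers mark pairs. With the replicate block 1210 genes were higher and 1068 lower. The lower counts were then 4 ATF4 targets, 2 bZIP partners and 1 folding enzyme, instead of 5, 3 and 2.

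Leaving out single libraries gave ranges of 1 to 2 higher and 1 to 2 lower around eIF2alpha, 1 to 2 and 1 to 2 around IRE1 and ATF6, 1 to 4 lower among bZIP partners, 1 to 9 lower among ATF4 targets, 0 to 4 higher and 0 to 3 lower among folding enzymes, 0 to 4 and 0 to 7 for degradation and export, and 1 to 2 and 0 to 1 among death genes. Higher ATF4 targets ran from 5 to 7 as single libraries were left out. Upper-quartile scaling gave 2 higher around eIF2alpha, 2 lower bZIP partners and 3 lower ATF4 targets. It also gave 2 higher and 1 lower folding enzymes and 1 higher degradation gene. Library totals gave 2 higher and 1 lower around eIF2alpha, 1 lower bZIP partner, 3 lower ATF4 targets, 4 higher and 1 lower folding enzymes and 1 higher degradation gene. DESeq2 gave 3 lower around eIF2alpha, 4 lower bZIP partners, 8 lower ATF4 targets, 2 higher folding enzymes and 1 lower degradation gene. Its size factors in edgeR also gave 1 lower degradation gene. No low-count filter gave 3 lower ATF4 targets and 2 higher folding enzymes.

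Some values near 0 turned sign. ATF6 turned to -0.013 without Ctrl shRNA library 3. HSPA5 was 0.016 under upper-quartile scaling, 0.059 under library totals and -0.075 to 0.0103 as libraries were left out. ATF5 was 0.014 and 0.0592 under these scalings and -0.10 to 0.011 without single libraries. CREB3 was 0.050 and 0.096 under them, 0.0052 with the replicate block, and -0.093 to 0.084 without single libraries. Over the 13 alternatives the list medians ran from -0.18 to 0.11 for death genes, -0.02 to 0.12 for folding enzymes, -0.03 to 0.11 for degradation and export and -0.06 to 0.10 around IRE1 and ATF6, and the other 3 stayed below 0. The CHAC1 to DDIT3 ratio ran from -0.28 to 0.33 and the SDF2L1 to SDF2 ratio from -0.26 to 0.024. On the gene's own strand, 1 window of the 10 held ERSE-II and 0 the C/EBP-ATF element. The causes were not tested. DDIT3 and CHAC1 had the fewest counts, 57 to 139 and 29 to 74 per library.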
